A study of Arabidopsis thaliana with 208 samples.

Results

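SALK_146141, an Arabidopsis line that carries a T-DNA, bacterial DNA integrated into a plant chromosome that can disrupt a gene, was compared with the wild type Col in roots grown on 1 mM KNO3. The libraries were chosen by their labels: 4 of SALK_146141 and 4 of Col at 1 mM, out of 104 in the series, each the sum of 2 sequencing runs. As a second reference, 28 libraries of 7 other SALK lines at the same concentration were used, namely SALK_012253, SALK_015182, SALK_035980, SALK_070847C, SALK_085964C, SALK_094437C and SALK_100002. All plants were 9 days old when their roots were harvested, all media held the same salts and sucrose apart from KNO3, and each biological replicate combined the seedlings of 2 plates. KCl was the same at both concentrations, so potassium changed with KNO3. SALK_146141 is 1 line, and the site and number of its insertions are not given in the sources used here. An effect of low LBD4 cannot be told apart from that of any other difference between this line and the references. The series as a whole counted 3′ tags of transcripts in Col and 12 insertion lines at 1 and 10 mM KNO3, in order to study how nitrogen metabolism is regulated by transcription.

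The SALK_146141 libraries held 5007665 to 9086377 counts, the Col libraries 6629042 to 11439440 and the other SALK libraries 5423543 to 12765164, and 19664 nuclear genes passed the filter on low counts. SALK_146141 replicate 3 was the shallowest of its group, with 801440 counts in run 1, and it stood apart from its fellows on the first principal component, at 20.04. Values are in CPM, the count scaled to a fixed library size with TMM factors, and a gene was called when its adjusted p (edgeR's quasi-likelihood test, Benjamini-Hochberg over all genes tested) was under 0.05.

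LBD4 encodes a LOB domain protein, one of a plant family of DNA-binding regulators. In the vascular tissue of Arabidopsis it is known from the boundary between procambium, the dividing tissue that renews the vasculature, and phloem, and it has been placed downstream of the receptor kinase PXY. Other members of the family act in lateral root initiation (LBD16, LBD18 and LBD29) and in the repression of genes of nitrate response (LBD37, LBD38 and LBD39).

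LBD4 (AT1G31320, chromosome 1) was nearly absent from the line. The 4 SALK_146141 libraries held 0.571, 0.317, 0.878 and 0.330 CPM, 15 counts in all, and the Col libraries held 18.2, 10.5, 14.7 and 21.6 CPM, 576 counts in all. No SALK_146141 library came near any Col library or any of the 28 libraries of the other SALK lines, which ranged from 11.5 to 26.2 CPM around a median of 19.9. The log2 change was -5.05 ± 0.51 (SE) against Col, with an edgeR adjusted p of 1.12e-11, and -5.29 ± 0.46 against the mean of the other 7 lines. That LBD4 is low in this line was known from earlier results of these data, so its level here is a description. In bulk roots, fewer cells of a type and less RNA per cell cannot be told apart. Tags near the 3′ end do not show where the insertion lies or whether a shortened transcript is made.

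Of the 39 LOB domain genes in the list, 21 passed the filter, and LBD4 was the member called against Col, with a median log2 change over the tested members of 0.05 beside 0.00098 over all genes tested. The 3 members at the next lowest p, LBD26, LBD12 and LBD14, had log2 changes of 0.83, 1.09 and -0.52 and adjusted p-values (edgeR) of 0.401, 0.472 and 0.582. LBD3, the close relative studied beside LBD4 in the root vasculature, held 1.63 CPM in the line and 1.37 CPM in Col (log2 change 0.29, adjusted p 0.911 by edgeR). LBD16, LBD37, LBD38 and LBD39 had log2 changes of 0.14, -0.11, 0.17 and -0.23, none past the threshold. Among the 20 loci nearest to LBD4 in the annotation, 10 on each side, 9 were tested and 0 were called by edgeR or by DESeq2, with 2 at an unadjusted p under 0.05 (8.79% of all genes tested) and log2 changes from -1.43 to 0.36.

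Against Col, 31 genes were called, or 0.158% of those tested: 13 were higher (0.0661%) and 18 lower (0.0915%). Of these, 16 differed by at least 2-fold, 4 upward and 12 downward. The SALK_146141 and Col libraries did not overlap for 29 of the 31, against 2.8% of all genes tested. All 18 lower genes lay below Col (1.32% of all genes) and 11 of the 13 higher genes above it (1.48%). The 31 were called from these same libraries, which favours separation, so these counts are descriptions. Against the mean of the other 7 SALK lines, 61 genes were called (0.31%), 25 higher and 36 lower. In the same direction against both references, 13 were called (0.0661%), 12 lower (0.061%) and 1 higher (0.00509%). Both comparisons use the same 4 SALK_146141 libraries, so their overlap is a description. With the strip number of the titles as a covariate, all 31 and all 13 were called again and the counts rose to 125 against Col and 41 against both. In a fit of the 8 libraries alone, 8 were called against Col without a replicate block and 14 with it. Without SALK_146141 replicate 3 or without Col replicate 3, 16 and 14 were called against Col, without Col replicate 3 the count against both was 8, and without SALK_146141 replicate 1 the count against the other 7 lines was 205. The sign of all 31 was the same in each of these 3 fits, and of 30 of them in both fits of 8 libraries.

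**Figure D1:**
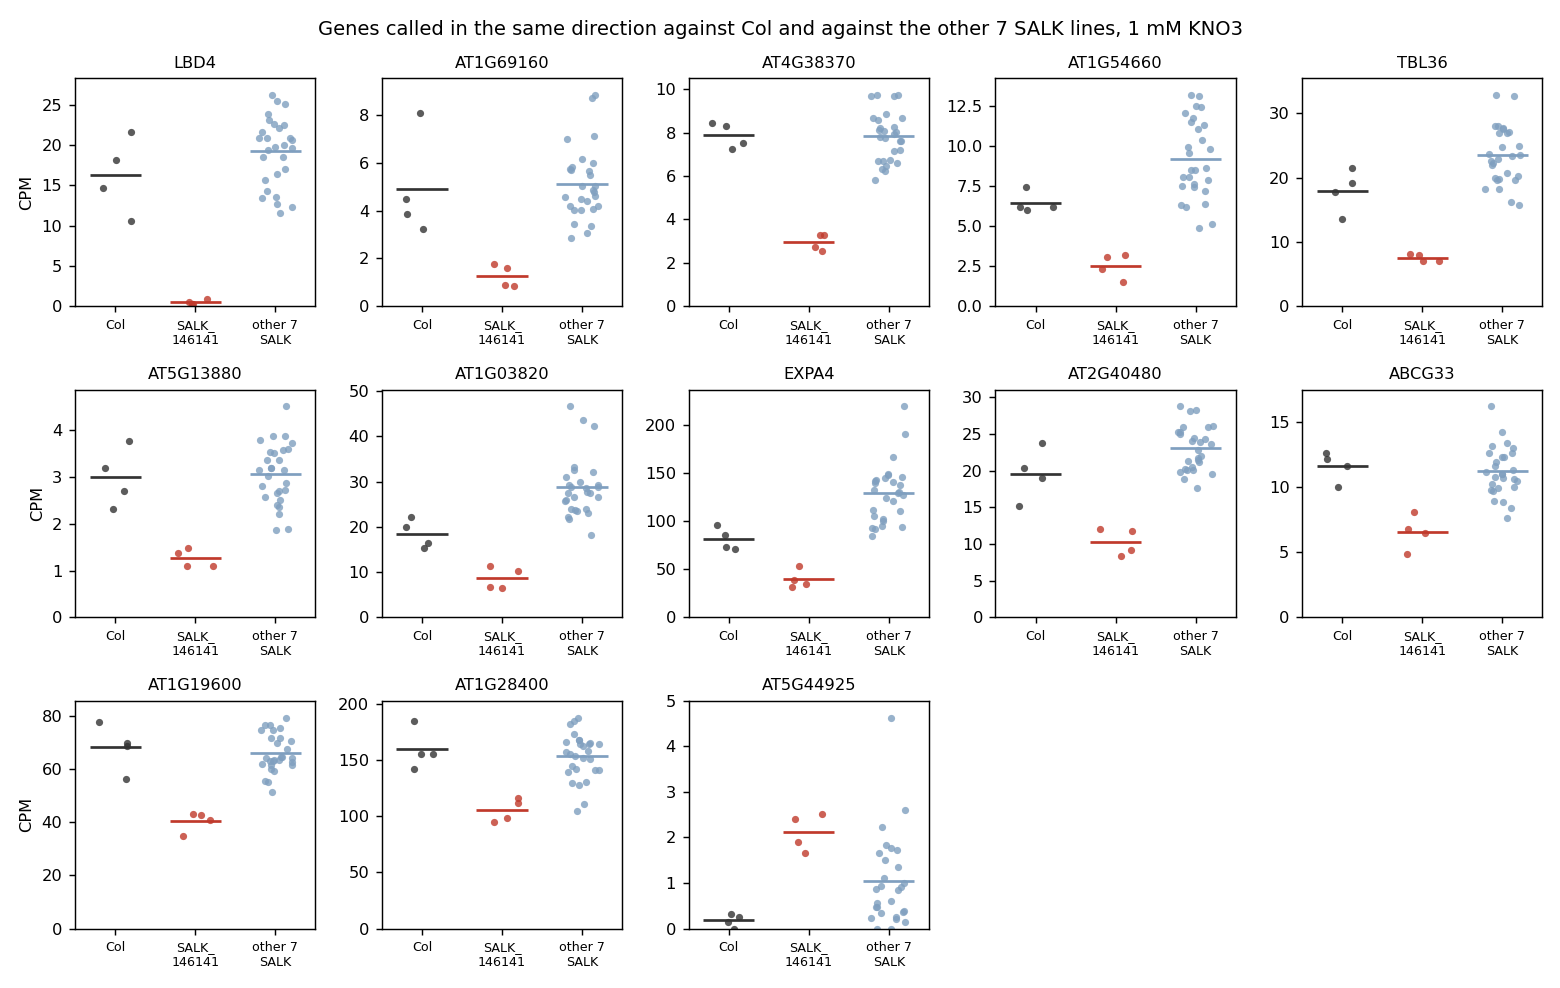
CPM of the 13 genes called in the same direction against Col and against the other 7 SALK lines, 1 point per library at 1 mM KNO3 (4 of Col, 4 of SALK_146141, 28 of the other SALK lines), with bars at the group means; each vertical axis is linear, starts at 0 and has its own scale. For the 12 genes from LBD4 to AT1G28400 the SALK_146141 points lie below all Col points, while AT5G44925 lies above them.

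Among the 12 genes lower against both were EXPA4 and TBL36. EXPA4, an alpha-expansin, belongs to the proteins that loosen walls during cell growth. It held 32.2, 38.6, 54.0 and 34.7 CPM in SALK_146141, against 72.99, 71.5, 95.8 and 85.8 CPM in Col. All 4 values lay below every Col value and below the 84.9 CPM of the lowest of the 28 other SALK libraries. The log2 change was -1.04 ± 0.20 (SE) against Col (edgeR adjusted p = 0.00329) and -1.71 ± 0.17 against the other lines (7.02e-12). TBL36, of a family of enzymes that acetylate wall polysaccharides, held 7.08, 8.15, 7.03 and 8.04 CPM, against 13.5, 21.5, 17.8 and 19.1 CPM in Col. The groups were again separate, and the lowest other SALK library was at 15.7 CPM. TBL36 fell by 1.25 ± 0.18 (SE) on the log2 scale against Col, with an edgeR adjusted p of 4.15e-06. For 4 families that act on the cell wall, picked after values had been seen, the shares called are descriptions. EXPA4 was the 1 of 23 tested expansins called lower against Col and TBL36 the 1 of 40 tested TBL genes. Of all genes, 0.0915% were called lower. Of 12 tested glycosyl hydrolases of family 9 and 26 tested XTH genes, which remodel xyloglucan, 0 were called by edgeR, and DESeq2 called 1 XTH gene lower. In the order expansin, TBL, glycosyl hydrolase and XTH, 2, 2, 3 and 7 genes had an unadjusted p under 0.05, beside 8.79% of all genes.

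AT1G03820 and AT5G13880, which the annotation describes as an E6-like and a cotton fiber protein, were lower as well. AT1G03820 held 11.3, 10.26, 6.81 and 6.61 CPM in the line and 19.97, 22.2, 16.6 and 15.3 CPM in Col, with no overlap. Its log2 change was -1.06 ± 0.24 (SE) against Col (edgeR adjusted p = 0.0309) and -1.68 ± 0.20 against the other lines (3.48e-09), whose libraries all lay higher, from 18.3 to 46.6 CPM. AT5G13880 was expressed at a lower level, with 1.26 ± 0.194 CPM (SD, n = 4) in the line and 2.99 ± 0.627 CPM in Col, 41 and 108 counts in all. Its edgeR adjusted p against Col was 0.0419, and the call was lost in 12 of 17 alternative fits. AT1G03820 lost its call against Col in 8 of the 17.

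AT4G38370, a phosphoglycerate mutase family member, and AT1G19600, a pfkB-like carbohydrate kinase, belong by annotation to families of enzymes that act on sugars and their phosphates. AT4G38370 held 2.74, 3.28, 3.29 and 2.53 CPM in SALK_146141 and 7.51, 8.32, 7.24 and 8.46 CPM in Col. These groups were far apart for their spread, and the lowest of the other SALK libraries was at 5.83 CPM. Its log2 change was -1.43 ± 0.18 (SE) against Col (edgeR adjusted p = 2.7e-08). The next locus on chromosome 4, AT4G38380, a MATE efflux family member, was also low, at 0.193 CPM against 0.926 CPM in Col and 1.23 CPM in the other SALK lines. It was called against the other lines (log2 change -2.82 ± 0.52, edgeR adjusted p = 0.000704) and not against Col (-2.44 ± 0.64, adjusted p = 0.127), and the strand setting behind the counts is not given in the sources used here. AT1G19600 held 41.0, 42.8, 34.9 and 43.1 CPM against 68.8, 77.9, 70.0 and 56.3 CPM in Col, again without overlap, and fell by 0.75 ± 0.13 (SE) on the log2 scale (edgeR adjusted p = 0.000298).

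The other 5 genes lower against both were ABCG33, AT1G69160, AT1G54660, AT2G40480 and AT1G28400. ABCG33, a full-size ABC transporter of the pleiotropic drug resistance type, held 4.91, 6.77, 8.12 and 6.50 CPM in the line and 10.06, 12.2, 11.7 and 12.6 CPM in Col (log2 change -0.85 ± 0.17, edgeR adjusted p = 0.0067). The Col and SALK_146141 libraries did not overlap, but the highest SALK_146141 library exceeded the lowest of the other SALK libraries, at 7.66 CPM. AT1G69160, described as an unknown protein in the older annotation notes, held 1.27 ± 0.477 CPM (SD, n = 4) in the line and 4.92 ± 2.18 CPM in Col, 42 and 172 counts. Its log2 change, -1.87 ± 0.38, was next after LBD4 in size among the genes lower against both (edgeR adjusted p = 0.0067). AT1G54660, which the annotation does not describe, held 2.53 ± 0.765 CPM in the line, 6.43 ± 0.655 CPM in Col and 9.16 ± 2.45 CPM (n = 28) in the other lines. AT2G40480, a WEB family member, held 10.33 ± 1.87 CPM (n = 4) against 19.6 ± 3.55 CPM in Col, and AT1G28400, named a GATA zinc finger protein in the annotation, 105 ± 10.2 CPM against 159 ± 17.7 CPM. The last had the smallest change of the 12, -0.60 ± 0.14 on the log2 scale, with an edgeR adjusted p of 0.045, and its call against Col was lost in 13 of the 17 alternative fits. Of the other genes in this set, AT1G54660 lost its call in 9 of the 17, ABCG33 in 5, AT1G69160 in 4, AT1G19600 in 3, AT2G40480 in 2 and EXPA4 in 1, and TBL36 and AT4G38370 in 0.

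AT5G44925, a locus with no description, was the gene called higher against both. It held 2.51, 1.904, 2.41 and 1.65 CPM in SALK_146141 and 0.150, 0.247, 0 and 0.313 CPM in Col, 66 counts against 7. The groups were separate, but the other SALK libraries ranged from 0 to 4.63 CPM and the mean of SALK_094437C, 2.67 CPM, was above that of SALK_146141, 2.12 CPM. Without SALK_035980 in the second reference, 12 genes were called against both, and the 12 lower genes were all among them. Of the 13 genes, 10, all of them lower, also lay apart from each of the 28 other SALK libraries. Of all genes tested, 0.0814% had 4 values all below these libraries and 0.0153% all above. The 13 were called against these same libraries, which favours separation, so the count is a description. The letters GCGGCG, a sequence that LOB domain proteins bind in vitro, were searched on both strands from 250 bases before to 50 bases after the annotated start (RefSeq, TAIR10.1). They occurred in 0 of the 11 windows that could be read for the 12 lower genes and in 2.24% of 27443 windows of protein-coding genes, which says only that these letters are not in those windows.

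The libraries at 10 mM KNO3 are other cultures of the same lines. Their strip numbers were 4, 5, 10 and 12 in Col and 4, 6, 11 and 12 in SALK_146141, a looser match than at 1 mM. At 10 mM, 12 of the 12 genes lower against both again had lower means in SALK_146141 than in Col. Of them, 9 were called, beside 0.0661% of all genes tested that were called lower at that concentration. LBD4 held 0.522 ± 0.076 CPM (SD, n = 4) in the line and 22.2 ± 6.42 CPM in Col at that concentration (log2 change -5.35). TBL36 held 9.50 ± 1.54 CPM against 33.1 ± 1.802 CPM (log2 change -1.81, edgeR adjusted p = 7.8e-13). EXPA4 held 47.5 ± 17.8 CPM against 141 ± 6.43 CPM, a log2 change of -1.56. AT1G03820, AT4G38370, AT1G54660, ABCG33, AT1G19600 and AT2G40480 were the other 6 called, with log2 changes of -1.91, -1.33, -1.62, -1.17, -0.86 and -0.78. The 3 that did not pass were AT1G69160, AT1G28400 and AT5G13880, at -0.59, -0.31 and -0.04. AT5G44925 was higher again by its mean (log2 change 2.28, edgeR adjusted p = 0.146).

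Over all 31 genes, 28 had the same sign at 10 mM, beside 47.5% of all genes tested, and 13 were called, 11 lower and 2 higher, beside 0.0966% of all genes called at 10 mM, 0.0661% lower and 0.0305% higher. The difference between the effect at 1 mM and at 10 mM was called for 0 of the 31 and for 0 genes in all by edgeR (12 and 1414 had an unadjusted p under 0.05), and the lowest adjusted p among the 31 was 0.365. A p that misses the threshold does not show that the effects were alike at the 2 concentrations.

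**Figure D2:**
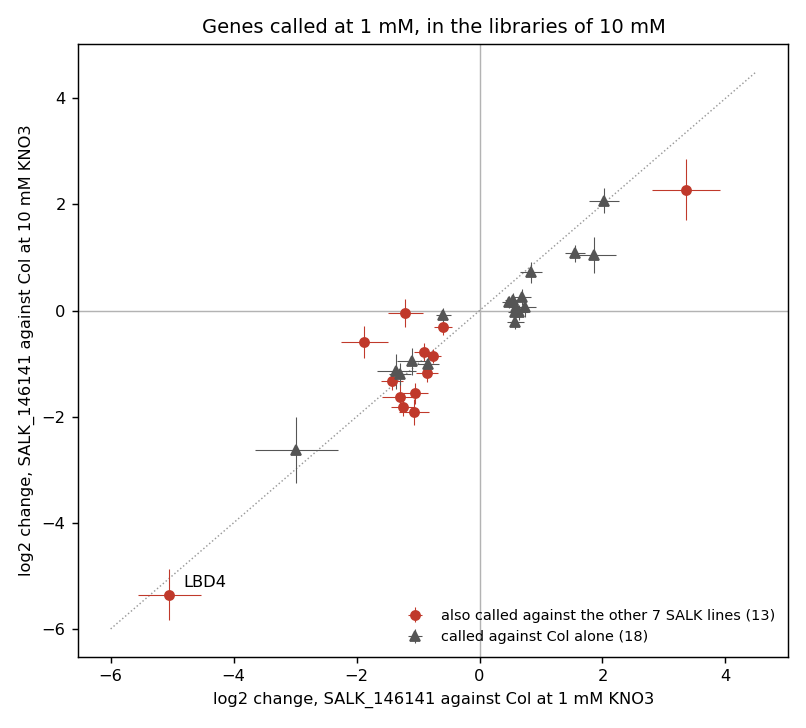
Log2 change of SALK_146141 against Col at 1 mM (horizontal) and at 10 mM KNO3 (vertical) for the 31 genes called at 1 mM, with bars for the SE and a dotted line of equal change. Circles are the 13 genes also called against the other 7 SALK lines and triangles the 18 others; 28 of the 31 lie on the same side of 0 on both axes.

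The other 18 genes, 12 higher and 6 lower, were called against Col and not against the other 7 SALK lines. For all 18, the median of the other 7 lines differed from Col in the same direction as SALK_146141, and for 15 at least 1 of those lines was called against Col as well. These comparisons share the 4 Col libraries. The selection of genes called against Col and not against the other lines itself favours a shared direction, so both counts are descriptions. AT3G25150, a protein with an NTF2 domain and an RNA-binding domain, held 64.5, 85.5, 49.4 and 66.7 CPM in SALK_146141 and 25.2, 18.8, 22.1 and 25.3 CPM in Col. The other SALK libraries held 50.6 to 86.5 CPM, close to the range of SALK_146141, and each Col library stood below all of them. The log2 change was 1.55 ± 0.17 (SE) against Col (edgeR adjusted p = 1.18e-10) and -0.05 ± 0.12 against the other lines, and all 7 of those lines were called against Col. AT5G35935, a locus with no description, followed the same order, with 11.7 ± 1.05 CPM (SD, n = 4) in the line, 2.86 ± 0.473 CPM in Col and 9.98 ± 2.47 CPM (n = 28) in the other lines, and it too was called in all 7. These were the 2 higher genes that were called again at 10 mM.

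The 12 genes that were higher than Col alone included AT4G18100, AT5G66540 and AT5G48240, whose calls were lost in 11, 12 and 7 of the 17 alternative fits. AT4G18100, ribosomal protein L32e, held 877 ± 119 CPM in the line and 579 ± 112 CPM in Col (SD, n = 4). AT5G66540, a U3 small nucleolar ribonucleoprotein, and AT5G48240, an Rrp15p protein, had log2 changes of 0.54 and 0.58. In the other 7 lines the median changes of these 3 genes against Col were 0.49, 0.56 and 0.43. At 10 mM the changes in SALK_146141 were 0.07, 0.20 and -0.03, none past the threshold.

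Among the 6 that were lower than Col alone, PHYA encodes the far-red light receptor phytochrome A. It held 56.6, 58.4, 53.8 and 50.1 CPM in SALK_146141 and 71.3, 64.5, 110.5 and 83.0 CPM in Col, while the other SALK lines averaged 57.0 ± 5.96 CPM (n = 28). ARP9, an actin-related protein, held 6.37 ± 0.867 CPM in the line, 11.5 ± 0.713 CPM in Col and 7.66 ± 1.24 CPM in the other lines. AT5G08250, a cytochrome P450, held 7.96 ± 1.01, 19.6 ± 2.80 and 11.8 ± 3.93 CPM in the same order. ARP9 and AT5G08250 were called lower at 10 mM too (log2 changes -1.01 and -1.19), whereas PHYA was not (-0.08, edgeR adjusted p = 0.984). AT2G01422 rested on 5 counts in the line and 48 in Col, and AT4G16745 on 31 and 94. AT1G20030, a thaumatin family member related to pathogenesis proteins, was at 2.87 ± 1.02 CPM against 6.17 ± 1.70 CPM.

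**Figure D3:**
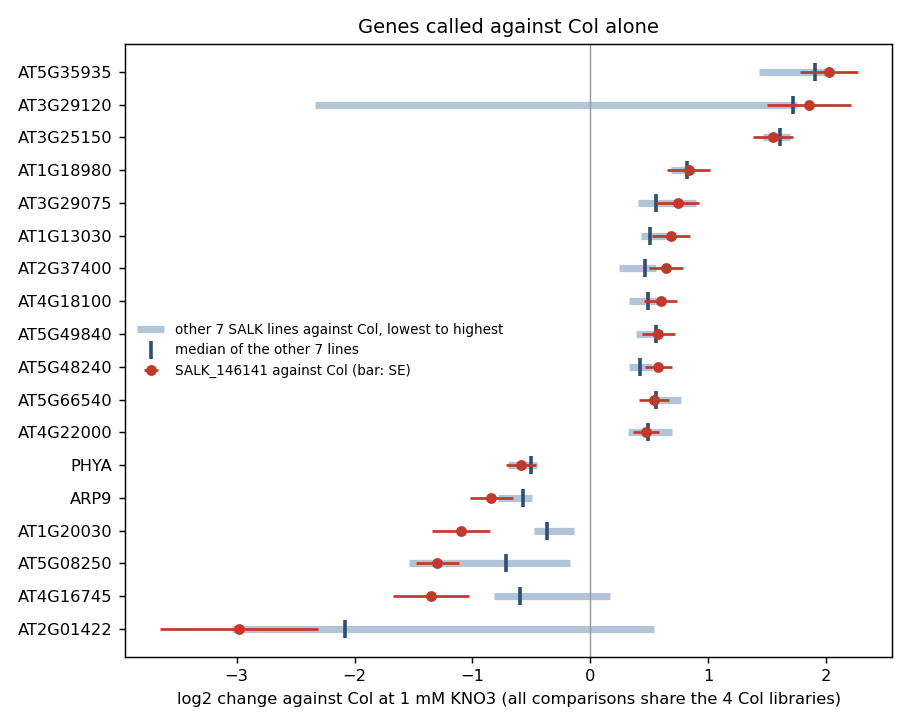
Log2 change against Col at 1 mM KNO3 for the 18 genes called against Col and not against the other 7 SALK lines. Points with SE bars are SALK_146141, and light bars span the lowest to the highest of the other 7 lines. Ticks mark the median of those lines, which lies on the same side of 0 as SALK_146141 for all 18. The selection of the genes favours this, and all comparisons share the 4 Col libraries.

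Against the other 7 SALK lines, 24 further genes were lower and 24 higher without being called against Col. The 4 wall families were picked after values had been seen, so their shares are descriptions. Against the other 7 lines, edgeR called 4 of 23 tested expansins and 2 of 12 glycosyl hydrolases of family 9 lower. It called 1 of 40 TBL genes and 0 of 26 XTH genes lower. The share called lower over all genes was 0.183%. DESeq2 called as many in each family, in either direction, and 6, 3, 9 and 6 genes had an unadjusted p under 0.05, beside 13.2% of all genes. The 4 expansins were EXPA4, EXPB3, EXPA1 and EXPA6. EXPB3, a beta-expansin, held 149 ± 42.7 CPM in SALK_146141 (SD, n = 4), 241 ± 45.1 CPM in Col and 331 ± 67.9 CPM (n = 28) in the other lines, which gave log2 changes of -1.14 against those lines (edgeR adjusted p = 2e-05) and -0.70 against Col (0.262). EXPA1 held 11.5, 17.4 and 28.1 CPM in the same order, with Col in between. EXPA6 averaged 22.7 CPM in the other lines, and its log2 change was -0.82 against them (edgeR adjusted p = 0.00926) and -0.03 against Col. For EXPB3, EXPA1 and EXPA6 the SALK_146141 and Col libraries overlapped. The median of the tested expansins was -0.22 against the other lines and -0.09 against Col, beside 0.011 and 0.00098 over all genes tested.

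The 2 glycosyl hydrolases, of a family of enzymes that cut cellulose-like glucans, were GH9C2 and GH9B8. GH9C2 held 49.7 ± 14.4 CPM against 80.1 ± 15.4 CPM in Col and 102 ± 17.8 CPM in the other lines. Its log2 change was -1.04 against the other lines (edgeR adjusted p = 1.09e-05) and -0.70 against Col (0.168). AT4G24780, a pectin lyase-like protein, and AT1G62770, an inhibitor of invertase or pectin methylesterase, fell by 1.09 and 0.89 on the log2 scale against the other lines, and their log2 values against Col, -0.61 and -0.66, were not called. CYCD3;1, a D-type cyclin that promotes cell division, held 14.0 ± 3.003 CPM in the line, 18.3 ± 4.66 CPM in Col and 20.4 ± 3.12 CPM in the other lines, and was called lower against those lines (log2 change -0.56, edgeR adjusted p = 0.0385). MYB34, an activator of indole glucosinolate synthesis, was lower by 0.67 (0.0263).

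The 61 genes called against the other 7 lines were also read in the libraries at 10 mM. Of the 36 lower genes, 33 had the same sign against the other 7 lines at 10 mM and 25 were called, with a median log2 change of -0.93 at 1 mM and -0.98 at 10 mM. Of the 25 higher genes, 14 had the same sign and 1 was called, with medians of 0.56 and 0.04. The difference between the lower and the higher genes was not tested. The shares over all genes tested were 50.7% for the same sign, 0.147% called lower and 0.0254% called higher at 10 mM. The difference between concentrations was called for 0 of the 61 by edgeR, with 1200 of all genes at an unadjusted p under 0.05. The gene called higher at both concentrations, DEWAX, a repressor of wax synthesis, held 52.6 ± 7.47 CPM in the line and 53.3 ± 12.6 CPM in Col, and 43.1 ± 18.8 CPM in the other lines, and its change against Col was -0.01. The lowest of the other SALK libraries held 1.87 CPM, and in the lowest of those lines the log2 change of DEWAX against Col was -4.36. SALK_015182, which is in the second reference, is known from earlier results of these data to be low in DEWAX. The mean of the other lines therefore includes a line low in this gene, and its part in the call was not tested.

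The number of genes called against the other 7 lines was larger in SALK_146141 than in any of those lines treated in the same way, 61 beside 1 to 13. Against Col the line was not at an extreme, with 31 beside 8 to 84. With the strip number as a covariate, the count against the other 7 lines was 1637 in SALK_146141 and 2 to 23 in the others, while the count against Col was 125 beside 136 to 1148. The median absolute log2 change over the 1637 was 0.42. Strip and line are linked in these libraries: Col, SALK_012253 and SALK_146141 carry the same 4 strip numbers, 1, 2, 7 and 9, and the other 6 lines share 1 to 3 of them. Against SALK_012253 alone, 44 genes were called, 165 with the strip as a covariate, and 11 of the 13 genes called against both references were called again, 12 with the covariate. SALK_012253 itself had 4 genes called against the mean of its own other 7 SALK lines, and 9 with the covariate. How much of the larger count in SALK_146141 belongs to the strips was not tested.

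**Figure D4:**
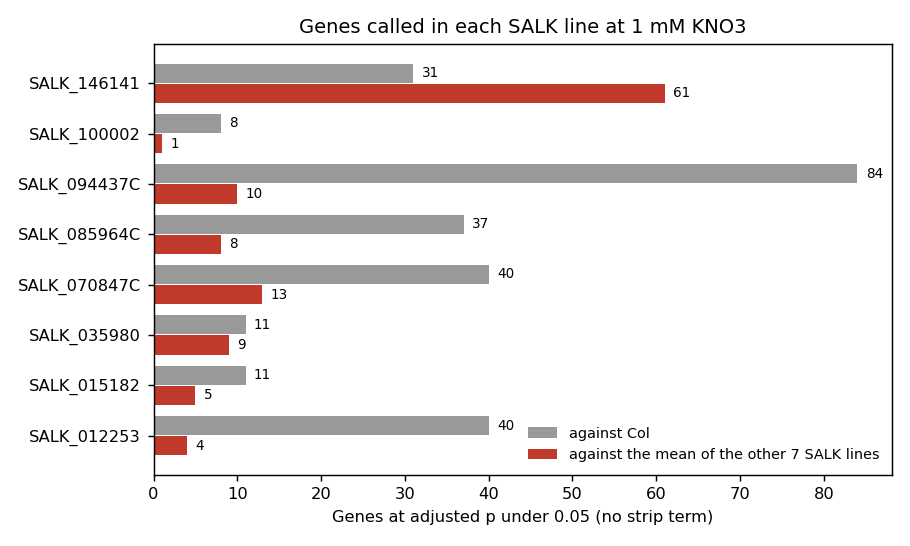
Number of genes called (edgeR adjusted p under 0.05) in each of the 8 SALK lines at 1 mM KNO3, against Col (grey) and against the mean of the other 7 SALK lines (red), without a strip term. SALK_146141 has 61 genes against the other lines, and the other 7 have between 1 and 13.

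Nitrogen metabolism is the subject of the series. Over all genes tested, 0.158% were called against Col and 8.79% had an unadjusted p under 0.05, so a count of 0 calls in lists of 10 to 24 genes lies at the background and is no result about them. Of 19 tested genes of nitrate and ammonium uptake, 0 were called by edgeR or by DESeq2 and 2 had an unadjusted p under 0.05. AMT1;3, an ammonium transporter, held 92.3 ± 8.43 CPM (SD, n = 4) in the line and 146 ± 60.6 CPM in Col, a log2 change of -0.66 ± 0.27 with an edgeR adjusted p of 0.472. AMT2;1 was at 49.6 ± 8.40 CPM against 38.2 ± 2.63 CPM (0.37, adjusted p = 0.451 by edgeR) and NRT2.4, a high-affinity nitrate transporter, at 13.2 ± 3.55 CPM against 17.7 ± 6.99 CPM. Of 10 genes of nitrate reduction and its reductant supply, 15 of ammonium assimilation and 24 nitrogen regulators, 0 were called against Col by either tool. Of these, 2, 0 and 1 had an unadjusted p under 0.05, and the median log2 changes were 0.01, -0.04 and -0.08. Against the other 7 lines, edgeR called 1 of the 24 nitrogen regulators higher, beside 0.127% of all genes. NIA2, which encodes the main nitrate reductase, held 355 ± 39.3 CPM against 419.6 ± 66.6 CPM (log2 change -0.24), GLN1;2, a cytosolic glutamine synthetase, 1392 ± 559 CPM against 1577 ± 519 CPM (-0.18), and NLP7, a regulator of the nitrate response, 50.5 ± 5.89 CPM against 63.0 ± 10.85 CPM (-0.31). For all 3 genes the SALK_146141 and Col libraries overlapped.

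In the lists of procambium and cambium, phloem, and xylem and secondary wall, 0 genes were called against Col by edgeR or by DESeq2 and 1 in each had an unadjusted p under 0.05, beside 0.158% and 8.79% of all genes. Counts of 0 in lists of this size are at the background. In the list of procambium and cambium genes 29 were tested, with 17 lower and 12 higher by sign and a median of -0.05. PXY, the receptor of the cambium, held 11.7 ± 1.96 CPM in SALK_146141, 14.3 ± 2.74 CPM in Col and 17.3 ± 3.66 CPM in the other lines, with edgeR adjusted p-values of 0.81 and 0.179. ARF5, an auxin response factor of the early vasculature, was at 24.1 ± 4.75 CPM against 19.3 ± 2.36 CPM (log2 change 0.30). The 18 tested phloem genes had a median of -0.10, with SWEET11, a sucrose exporter of the phloem, at 5.12 ± 0.82 CPM against 7.91 ± 2.46 CPM (log2 change -0.60, edgeR adjusted p = 0.512). The 14 tested genes of xylem and secondary wall had a median of -0.22, and LAC4, a laccase of lignin formation, was at 30.5 ± 4.67 CPM against 39.1 ± 5.07 CPM (-0.35, adjusted p = 0.518 by edgeR).

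Over the 28 lists 385 genes were tested, and LBD4 was the gene called against Col by edgeR and by DESeq2. Of the other 384, 32 had an unadjusted p under 0.05 against Col, or 8.33% beside 8.79% of all genes tested. The lowest edgeR adjusted p was 0.127, for ESB1, a protein of the Casparian strip. Against the other 7 lines, edgeR called 4 of these 384, beside 0.31% of all genes. The lists of procambium and cambium, lateral root formation and indole glucosinolates each held 1 lower, and that of nitrogen regulators 1 higher. Among the lists of cell type markers, the sums of endodermis and suberin lay apart between SALK_146141 and Col, and those of the other lists overlapped. The 19 markers of endodermis and suberin, none at 0, summed to 1053 to 1096 CPM in SALK_146141 and to 1155 to 1448 CPM in Col. By sign 16 of 19 were lower, beside 9789 of all 19664 genes tested, with a median of -0.22. Of the 19, 0 were called by edgeR or DESeq2 and 8 had an unadjusted p under 0.05, beside 8.79% of all genes. In the other SALK libraries they summed to 943.9 to 1289 CPM, and the median log2 change of SALK_146141 against those lines was -0.03. The 12 root hair markers were lower by sign in 12 of 12, at 451.6 to 638.2 CPM against 635.5 to 909 CPM, which overlap at their ends. Their median was -0.34, with 0 called by edgeR or DESeq2 and 3 at an unadjusted p under 0.05. In the other SALK libraries the root hair markers summed to 482.3 to 766.7 CPM, and the median against those lines was -0.10. Markers of photosynthetic tissue, with 1 of 22 at 0 in all 8 libraries, summed to 242.3 to 289.8 CPM in the line and 251.2 to 279 CPM in Col. Those of seeds, with 6 of 9 at 0, summed to 6.88 to 12.3 CPM and 6.13 to 10.2 CPM. Xylem markers were at 562.4 to 732.2 CPM against 596.1 to 877 CPM, and dividing cells at 174.4 to 206.8 CPM against 184.2 to 213.7 CPM. Phloem markers were at 283.6 to 315.5 CPM against 247.5 to 343.8 CPM, and procambium and cambium at 490.2 to 557.4 CPM against 491.0 to 565.0 CPM. Root cap markers were at 23.6 to 40.6 CPM against 16.3 to 30.0 CPM. The part of these shifts in the changes of EXPA4, TBL36 and the other genes called was not tested.

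**Figure D5:**
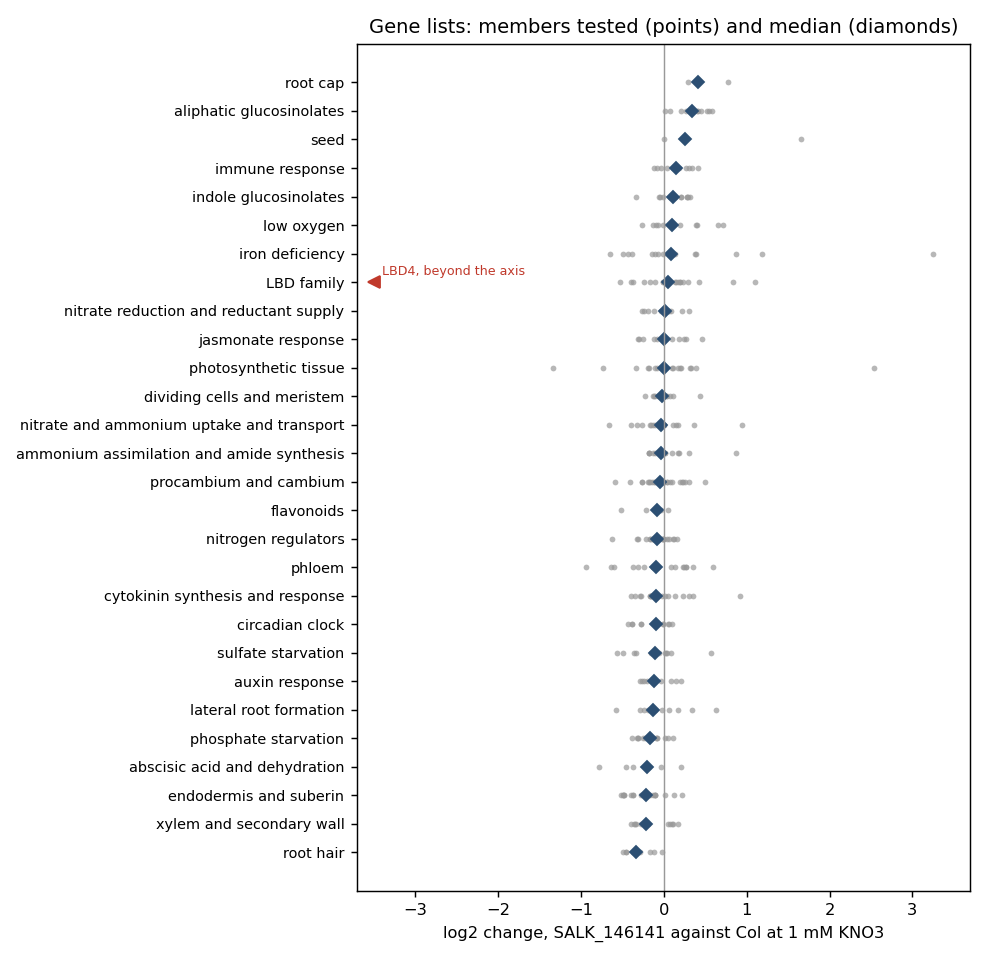
Log2 change of SALK_146141 against Col at 1 mM KNO3 for the tested members of the 28 gene lists (grey points) with the median of each list (diamonds), ordered by median. The medians run from -0.34 for root hair to 0.41 for root cap, and LBD4, at -5.05, lies beyond the axis.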

How the data were processed

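The deposited values are whole-number counts of reads per locus, 1 file per sequencing run, made by the authors with a BRAD-seq 3′ tag protocol, per the labels' protocols. FastQC, Bowtie, SAMtools, HTSeq, limma and TAIR10 are named, without versions or roles, in the submitters' processing notes. The 2 runs of each library were summed and 279 organelle loci left out. All 104 libraries were fitted with 1 coefficient per group in edgeR 4.0.16 (R 4.3.3): filterByExpr with a minimum count of 10, TMM scaling, quasi-likelihood test, Benjamini-Hochberg adjustment over 19664 genes, threshold 0.05. The scripts were tested on simulated data. DESeq2 1.42.0 was an alternative.

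Replicates of 1 group differed beyond counting error (chi-square per degree of freedom 8.86 to 21.9). The 2 runs of 1 library differed too, at 3.38 to 33.18, so this measure cannot tell replicates from runs of 1 library. The replicates were taken as separate from their labels. Titles carry a strip number, whose meaning is not spelled out; SALK_146141 and Col share strips 1, 2, 7 and 9 for replicates 1 to 4, and deviations of same-strip libraries correlated at 0.303, 0.318, 0.044 and 0.024. Pairs from different strips correlated at -0.214 to 0.337. These correlations do not settle whether the strips pair the libraries. Main values have no block, and blocked counts stand beside them.

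The members and lists were chosen with earlier results of these data known. Genes were named by rule: LBD4, the 12 largest rises and 12 largest falls against Col (group mean of 5 CPM or more in Col or the line), all genes called against both references, called list members and, for 8 lists, the 3 largest changes. Genes called only against the other lines, expansins, family 9 hydrolases and list members outside the rule were picked after their values were seen.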

Additional observations from a re-analysis of the deposited data

Results flagged for a closer look

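Among 100 groups of 4 libraries, the SALK_146141 and Col groups of 50 named genes, 6 held a library far from the other 3, and chance alone gives about 1 in 20. AT1G54660 held 7.41 CPM in Col replicate 2, beside 6.01 to 6.16 CPM in the others. AT2G37400 held 58.0 CPM in SALK_146141 replicate 3, beside 30.9 to 33.4 CPM. AT3G29075 held 168 CPM in the same replicate, beside 89.6 to 99.7 CPM. GDH1, a glutamate dehydrogenase, was low there, at 19.98 CPM beside 28.6 to 29.9 CPM. RFNR1, a root ferredoxin reductase, held 83.9 CPM in SALK_146141 replicate 2, beside 48.6 to 50.2 CPM. LAC17, a laccase, held 22.9 CPM in Col replicate 3, beside 14.1 to 14.7 CPM.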

How the results depend on the processing

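The change of LBD4 kept its direction and its side of the threshold in all fits run. The counts depended on the setting, and they are given here in the order against Col (31), against the other 7 lines (61) and against both (13). They were 125, 1637 and 41 with the strip as a covariate, and 74, 1726 and 29 when that fit held the 1 mM libraries alone, an alternative chosen after seeing the data. They were 8, 16 and 4 with run 1 alone and 11, 33 and 7 with run 2 alone, where depth was lower. Leaving out 1 replicate gave 14 to 37, 48 to 205 and 8 to 17. The 8 libraries alone gave 8 against Col, and 14 with the replicate block. These libraries hold no other SALK line. Their count against both, 5 without the block, takes the calls against the other 7 lines from the main fit. Against the other 7 lines, the 1 mM libraries alone gave 102 and DESeq2 116, and SALK_012253 alone with the strip gave 165, also chosen after seeing the data. Of 26 named genes called against Col, LBD4 left out, 5 were called in all 17 alternatives and 11 lost the call in 9 or more of them, and 165 of 442 comparisons lost it (37.3%), none with a change of sign. Of 391 comparisons of the 23 named genes not called, 0 gained a call and 2 changed sign, GLN1;2, whose log2 change ran from -0.45 to 0.043 over the replicates left out (0.043 without Col replicate 3), and LBD13 in run 1 alone (-0.16), neither called before or after. The cause was not tested.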

Other observations

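Genes of aliphatic glucosinolate synthesis, which makes methionine-derived defence compounds of the cabbage family, were higher than in Col by sign in 14 of the 14 tested. Over all genes tested, 9870 of 19664 were higher by sign. The median log2 change of the list was 0.34, but 0 were called by edgeR or DESeq2 and 2 had an unadjusted p under 0.05. MAM3, which elongates methionine, held 131 ± 18.9 CPM (SD, n = 4) in SALK_146141 and 89.9 ± 22.7 CPM in Col, a log2 change of 0.54 with an edgeR adjusted p of 0.576. GSTU20 held 86.4 ± 11.9 CPM against 60.4 ± 7.65 CPM (0.52, edgeR adjusted p = 0.422). Against the other 7 SALK lines the median of the list was 0.05. SMB, a regulator of root cap cells, held 7.599 ± 1.85 CPM against 4.34 ± 0.8287 CPM in Col (log2 change 0.78, edgeR adjusted p = 0.184).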
